A study of Homo sapiens with 43 samples.

Results

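Acetylation of lysine 27 on histone H3 (H3K27ac) marks active promoters and enhancers, and enhancers are the part of this landscape that differs most between cell types. H3K27ac marks where regulatory DNA is active but does not say which factor acts there, so peaks of transcription factors over the same regions add a separate measurement.

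The regions described here are stretches of the genome acetylated in the lung squamous cell carcinoma lines Calu-1 and HCC2450 and in none of 11 other lines. The H3K27ac peaks of 15 lists from 13 unmodified lines were merged on chromosomes 1 to 22 and X wherever peaks shared at least 1 bp, which gave 114149 merged regions. A merged region was kept when it held a peak of Calu-1 and a peak of HCC2450 and no peak of any other line, where either library counted for LK2 and NCI-H520. This left 1482 regions, 1.3% of all merged regions, with a total length of 3.60 Mb. The regions were chosen by the presence or absence of H3K27ac peak calls in the 13 lines, so their H3K27ac values are a description and were not tested.

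All cells were established lines grown in serum-containing medium without treatment, per the labels' protocols. Calu-1 and HCC2450 were each profiled for H3K27ac in 1 library and for no transcription factor. The other unmodified lines were HCC2279, SQ-1, EBC-1, NCI-H2887, HARA and LC-1/SQSF, with H3K27ac alone, and HCC95, KNS62, HCC2814, LK2 and NCI-H520, with H3K27ac and Sox2. Brn2 was profiled in LK2 and NCI-H520, by MNase ChIP per the sample titles, which do not name MNase for the H3K27ac, Sox2 and p63 samples. The labels also name LK2_DNp63, profiled for H3K27ac, Sox2 and p63, and LK2_GFP, profiled for H3K27ac and Sox2, without saying how these 2 LK2 derivatives were made. Sox2 is a stem cell factor often amplified in squamous carcinoma, p63 the lineage factor of basal and squamous epithelium, and Brn2 a POU-domain factor of neural cells.

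The Calu-1 list held 40337 peaks over 72.9 Mb and the HCC2450 list 36555 peaks over 73.7 Mb, the highest covered lengths of the 15 lists, which otherwise ran from 24.6 to 71.3 Mb. Depth is unknown for every library, since the lists carry peaks and not reads, and a region without a peak in a line is a region that was not called there. The 1482 regions took 1734 of the Calu-1 peaks (4.3%) and 1595 of the HCC2450 peaks (4.36%). Loci are given on hg19 and without gene names, since no annotation of that build was used here.

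The pair shared more exclusive regions than either line did with any other partner. Of the 3930 regions of Calu-1 found in exactly 2 lines, 37.7% were shared with HCC2450, and the next partners were HCC2279 with 847 regions and SQ-1 with 630. Of the 3184 regions of HCC2450 found in exactly 2 lines, 46.5% were shared with Calu-1, and the next partners were HCC2279 with 503 regions and SQ-1 with 248. Among the 5 lines with Sox2 ChIP, the fewest such regions were those of HCC2814, with 24 shared with Calu-1 and 35 with HCC2450, and the most those of KNS62, with 142 shared with Calu-1 and 148 with HCC2450.

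Both lines had a peak in 20191 merged regions, of which the exclusive ones made up 7.34%. The number of regions fell with each further line, to 772 regions at 9 lines, and was highest at 7576 regions acetylated in all 13. A further 1433 regions lay just outside the rule, with peaks in Calu-1, HCC2450 and exactly 1 other line. That line was HCC2279 in 645 regions (45.0%) and SQ-1 in 396 (27.6%), followed by EBC-1 in 130 and NCI-H2887 in 65. LC-1/SQSF was the further line in 18 regions, HCC2814 in 17 and LK2 in 11. The lists differ in size, and per 1000 of a line's own regions the further line was HCC2279 in 19.7, SQ-1 in 14.3, EBC-1 in 4.66 and LK2 in 0.473. The sample descriptions give Calu-1 and EBC-1 the same code, whose meaning they do not give, whereas Calu-1 and HCC2450 share none. Calu-1 and EBC-1 alone shared 374 regions, and whether the code bears on the shared regions was not tested.

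**Figure D1:**
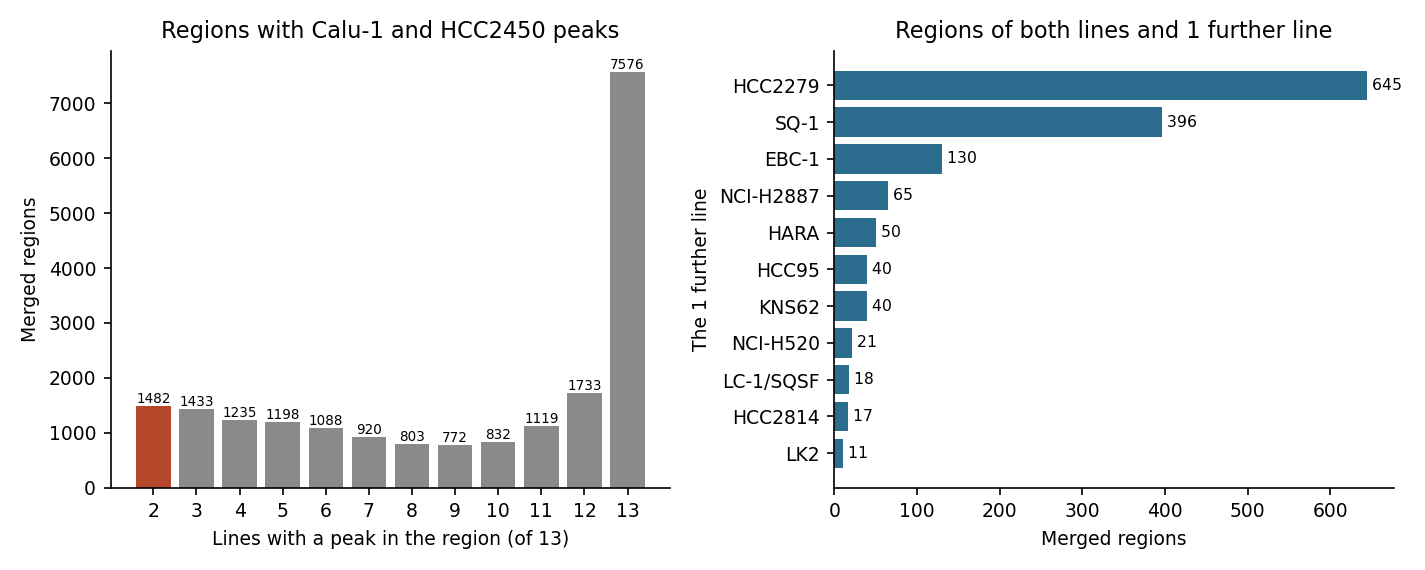
Left, merged regions with a peak in Calu-1 and HCC2450 by the number of the 13 lines that have a peak there, with the 1482 regions of exactly these 2 lines in red. Right, the 1433 regions with exactly 1 further line, by that line, where HCC2279 (645) and SQ-1 (396) come first.

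In the 1433 regions just outside it, the peak of the further line overlapped a Calu-1 or HCC2450 peak by a median of 875 bp and by at least 24 bp, and in 4 of them by 100 bp or less. Just inside it, 12 of the 1482 regions had a peak of another line within 100 bp and 148 had one within 1000 bp. The smallest gap, of 3 bp, lay at chromosome 9, 75592948 to 75593870, next to a peak of LK2.

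The choice of calls moved the set further. When every H3K27ac list was cut to its 16470 top-scoring peaks, the rule gave 664 regions, and only 195 of the 1482 regions (13.2%) overlapped them, which is 29.4% of the 664 seen from the other side. Without the lowest 25% of scores in each list the rule gave 1137 regions, which overlapped 786 of the 1482 (53.0%).

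The exclusive regions were wider at the median than those that Calu-1 or HCC2450 shared with HCC2279 alone. Their median merged width was 2034.5 bp, with quartiles of 1400.5 and 2957.5 bp, and the range ran from 522 to 14628 bp. The other 6322 regions found in exactly 2 of the 8 lines with H3K27ac alone had a median of 1393 bp, the regions of Calu-1 and HCC2279 alone 1728 bp and those of HCC2279 and HCC2450 alone 1762 bp. Regions of LK2 and NCI-H520 alone were wider, with a median of 2405 bp. Regions of 1 line alone were narrower, with 781 bp in Calu-1 and 983 bp in HCC2450. Width grows with the peaks that are merged and with the widths in a list, and the medians over all peaks were 1333 bp in Calu-1 and 1645 bp in HCC2450.

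Within the exclusive regions, Calu-1 peaks covered a median of 1354.5 bp and HCC2450 peaks 1700 bp. Calu-1 covered more than HCC2450 in 581 regions (39.2%) and HCC2450 more than Calu-1 in 900. A single peak of each line made up 1173 of the regions, while 232 held more than 1 Calu-1 peak and 102 more than 1 HCC2450 peak. The stretch covered in both lines was a median of 58.1% of the region, and in 905 regions it was more than 50%. Across the 1482 regions the covered lengths of the lines had a Spearman rho of 0.37, and both lengths share the merged region that defines them.

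The authors' score per peak, used only as a rank within a list, placed the median region below the middle of both lists. The best Calu-1 peak of a region stood at a median of the 40.1 percentile of its list and the best HCC2450 peak at the 41.7 percentile. In 285 regions both lines stood above the 50 percentile, and in 155 both stood below the 25 percentile. The Spearman rho between the ranks across the regions was 0.26. In 9 regions both peaks carried a score of at least 3100, a value at which many peaks of a list are tied, and these shared the best mean rank.

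**Figure D2:**
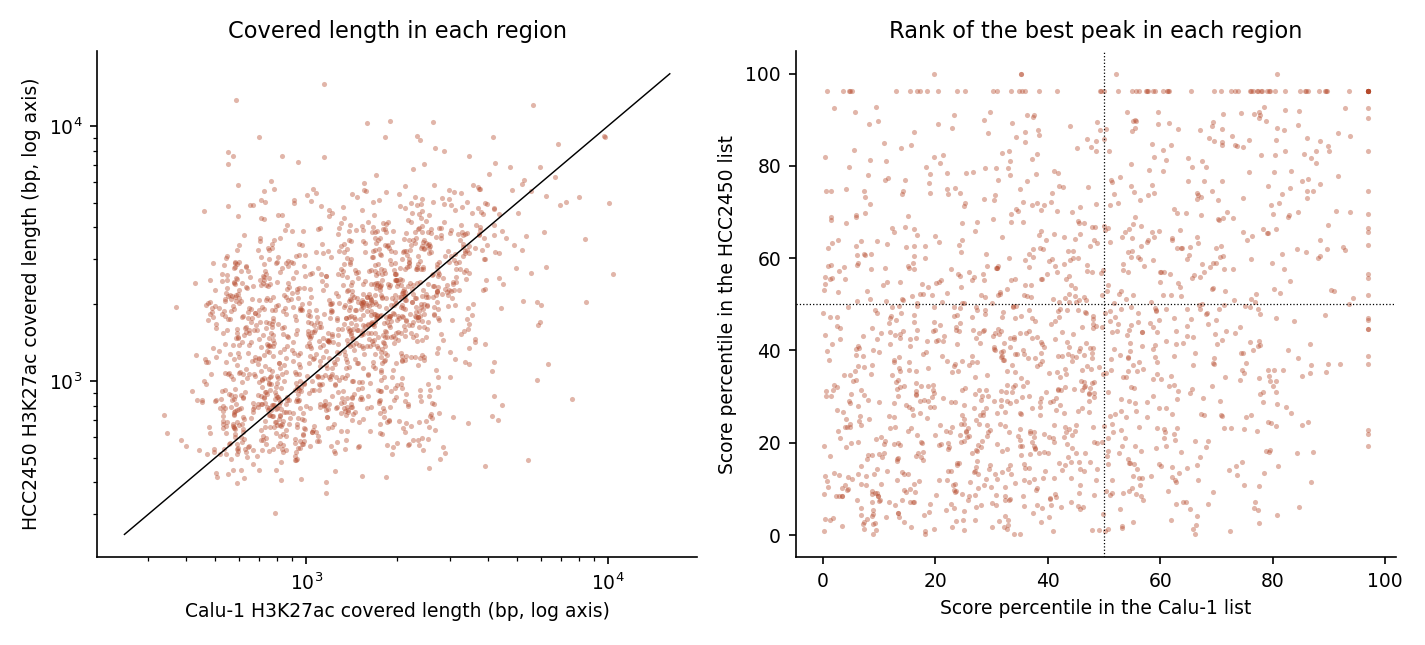
Each point is 1 of the 1482 regions. Left, the length covered by Calu-1 and by HCC2450 peaks, on log axes with the line of equality; 900 points lie above it. Right, the score percentile of the best peak in each list, with dotted lines at 50; 285 points lie in the upper right field, and the horizontal and vertical rows of points are tied scores.

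Of these 9, the 5 that are named stood alone to different degrees. The region at chromosome 2, 2273305 to 2277881, was covered over 4577 bp in Calu-1 and 3644 bp in HCC2450, and the nearest peak of any other line lay 262 kb away, in NCI-H520. The region at chromosome 19, 8742775 to 8749690, had 6916 bp in Calu-1 and 4896 bp in HCC2450, with the nearest other peak 66.8 kb away. At chromosome 11, 114235837 to 114240484, Calu-1 covered 4452 bp and HCC2450 3867 bp, and 1 other line had a peak within 25 kb. At chromosome 12, 116817812 to 116822533, Calu-1 covered 4177 bp and HCC2450 4722 bp with 5 other lines within 25 kb, and at chromosome 4, 15450967 to 15460004, Calu-1 covered 4152 bp and HCC2450 9038 bp with 10 other lines within 25 kb. High rank in both lists occurred both far from and close to the acetylation of other lines.

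The 10 widest regions were wider in HCC2450 about as often as all 1482. The widest, at chromosome 13, 75334363 to 75348990, was a single HCC2450 peak of 14628 bp over 2 Calu-1 peaks of 1141 bp in all, and no other line had a peak within 25 kb. The next, at chromosome 4, 1314404 to 1327027, joined an HCC2450 peak of 12624 bp to a Calu-1 peak of 585 bp that stood at the 3.61 percentile of its list, with peaks of all 11 other lines within 25 kb. Of the 10 widest, 6 had more HCC2450 than Calu-1 coverage, against 60.7% of all 1482. Among them were chromosome 5, 35768629 to 35778966, with 2620 bp in Calu-1 and 10338 bp in HCC2450 and no other line within 25 kb, chromosome 9, 26289227 to 26299472, with 1593 bp in Calu-1 and 10246 bp in HCC2450, and chromosome 9, 16189096 to 16199508, which is part of a cluster described later.

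The wide regions with both lines well covered were fewer. At chromosome 7, 73305454 to 73316194, 3 Calu-1 peaks covered 9735 bp and 4 HCC2450 peaks 9038 bp, and no other line had a peak within 25 kb. At chromosome 4, 182876065 to 182886251, the lines covered 9657 bp (Calu-1) and 9093 bp (HCC2450), and 84.1% of the region was covered in both. At chromosome 18, 56243543 to 56255592, Calu-1 covered 5625 bp and HCC2450 12050 bp. Calu-1 was the wider line at chromosome 13, 114607476 to 114617885, with 10410 bp in Calu-1 against 2616 bp in HCC2450, and at chromosome 7, 84758856 to 84768939, with 10084 bp in Calu-1 against 4978 bp in HCC2450. In all, 97 of the 1482 regions were over 5 kb.

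The exclusive regions varied in their distance from acetylation of the other lines. The nearest peak of any of the 11 other lines was at a median of 9495.5 bp, and 760 regions had one within 10 kb. No other line had a peak within 25 kb of 373 regions (25.2%), whereas all 11 had one within 25 kb of 192 regions (12.96%), and the median was 3 other lines. Among the other regions of exactly 2 lines with H3K27ac alone, 16.5% had no further line within 25 kb, against 20.9% of the regions of Calu-1, HCC2450 and HCC2279 alone and 34.6% of those of LK2 and NCI-H520 alone. The 373 isolated regions had a median width of 2135 bp, against 1988 bp for the rest, and similar ranks, with medians at the 41.3 (Calu-1) and 46.6 (HCC2450) percentiles against 39.4 and 40.1.

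Line by line, the nearest peaks were those of HCC2279, with a peak within 10 kb of 420 regions (28.3%), and of KNS62 with 349 (23.5%). The fewest were those of LK2 with 200 (13.5%) and HCC2814 with 215 (14.5%). For each of the 11 lines this share lay below that around the other regions of exactly 2 lines with H3K27ac alone. Regions that hold a peak of the line itself were left out of that comparison, so that it ran over 3871 regions for HCC2279 and over all 6322 for the lines with Sox2. It stood at 34.0% for HCC2279, 34.9% for KNS62, 18.9% for LK2 and 22.5% for HCC2814. The exclusive regions lay at a median distance of 178 kb from the nearest region acetylated in all 13 lines. For the other regions of 2 lines with H3K27ac alone this distance was 114 kb. Of the exclusive regions 3.98% lay within 5 kb of a region acetylated in all 13 lines, against 6.18% of those other regions. Regions of HCC2279 and HCC2450 alone were at 160 kb with 2.58% within 5 kb.

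The 5 regions farthest from any other line are examples. At chromosome 4, 29425169 to 29426484, the nearest peak of another line was 500 kb away, in SQ-1, and the region was covered over 1194 bp in Calu-1 and 1233 bp in HCC2450. At chromosome 13 a pair of regions stood alone together, at 103934016 to 103936782 with 2651 bp in Calu-1 and 1820 bp in HCC2450, and at 104002916 to 104004291 with 1149 bp in Calu-1 and 798 bp in HCC2450. The others lay at chromosome 3, 146684740 to 146687796, 341 kb from the nearest other peak, and at chromosome 18, 23228044 to 23232531, 296 kb from it. These were chosen after their values were seen.

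**Figure D3:**
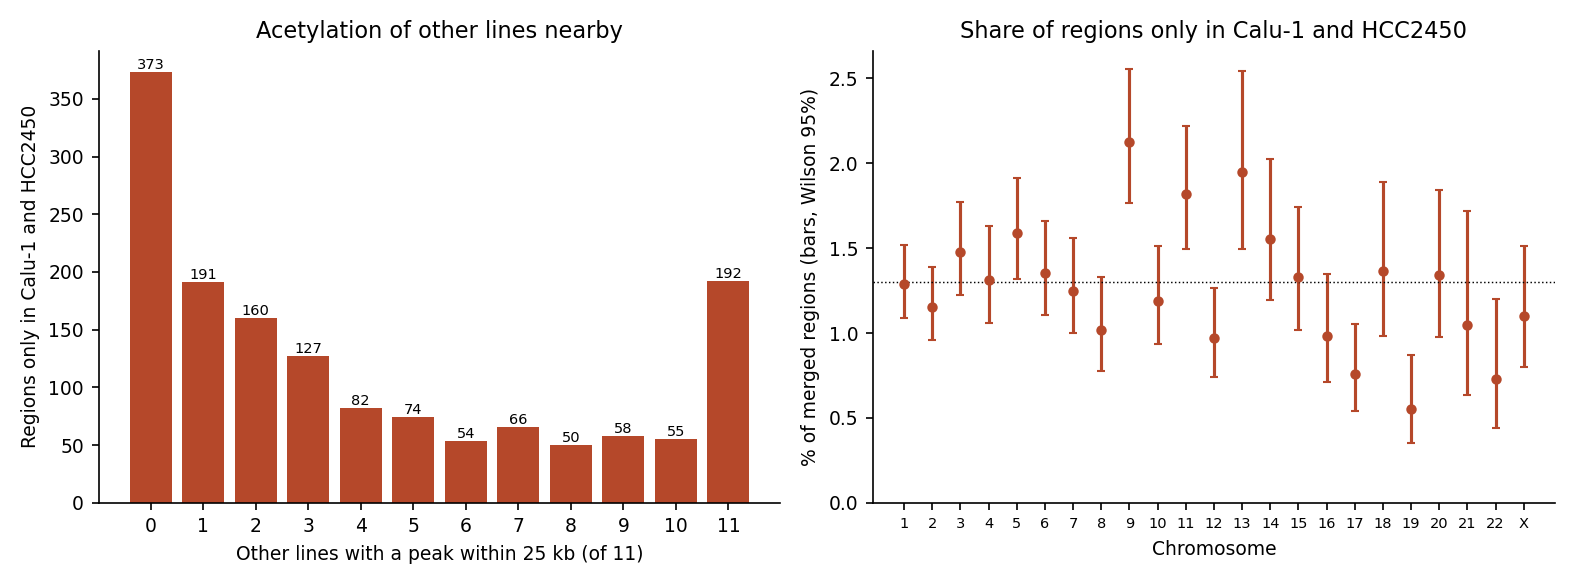
Left, the 1482 regions by how many of the 11 other lines have a peak within 25 kb, with the most regions at none (373) and a second rise at all 11 (192). Right, the exclusive regions as a share of all merged regions on each chromosome, with Wilson 95% intervals; the dotted line is the share over all chromosomes, 1.3%, and chromosome 9 is highest at 2.12%.

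The regions were spread over every chromosome tested and over 282 of the 309 windows of 10 Mb that hold a merged region, at unequal rates. They made up 2.12% of the merged regions of chromosome 9 (110 of 5181, 95% interval 1.76 to 2.55), 1.95% on chromosome 13 (53 of 2718, 1.49 to 2.54) and 1.82% on chromosome 11 (96 of 5270, 1.49 to 2.22). The lowest shares were 0.553% on chromosome 19 (18 of 3255, 0.350 to 0.872), 0.730% on chromosome 22 (15 of 2056) and 0.757% on chromosome 17 (34 of 4491). Of the regions with both lines, 13.7% were exclusive on chromosome 13, 11.7% on chromosome 9 and 1.91% on chromosome 19. On chromosome 9, regions of HCC2450 alone were also frequent, at 8.49% of merged regions against 5.57% over all chromosomes, while regions of Calu-1 alone were at 4.94% against 4.74%.

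By count, the fullest windows of 10 Mb lay on chromosomes 9, 10, 11 and 13. Chromosome 10 as a whole had a share of 1.19%, below the 1.3% over all chromosomes. On chromosome 9, 10000001 to 20000000, 20 of 350 merged regions were exclusive to the pair, which was 32.3% of the 62 regions with both lines. Windows with 18 regions each were chromosome 10, 10000001 to 20000000, chromosome 11, 110000001 to 120000000, and chromosome 13, 70000001 to 80000000. In the last, 35.3% of the 51 regions with both lines were exclusive. Regions of HCC2450 alone made up 18.3%, 15.2%, 5.59% and 12.9% of the merged regions of these 4 windows in the same order, so that only the window on chromosome 11 was near the 5.57% over all chromosomes. Regions of Calu-1 alone made up 5.14%, 3.48%, 4.73% and 2.27% in that order, against 4.74% over all chromosomes.

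Some regions stood in clusters. With gaps of up to 50 kb chained, 433 of the 1482 regions (29.2%) fell into 192 clusters of at least 2, while 1049 stood alone. There were 155 clusters of 2 regions, 26 of 3, 10 of 4 and 1 of 5. Regions of the class of LK2 and NCI-H520 alone, which is larger, lay within 50 kb of one another in 36.9% of cases and those of Calu-1 and HCC2279 alone, which is smaller, in 19.95%, and such shares rise with the size of a class. With a joining distance 4 times shorter there were 127 clusters, which held 17.9% of the regions, and among the 664 regions from top-scoring peaks 19.7% were in clusters. Some neighbours in a cluster nearly touch, with a smallest gap of 1 bp. With gaps of up to 500 bp merged, 20.9% of the 1301 regions then found were in clusters.

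The cluster with the most regions lay at chromosome 9, 81435076 to 81598288. Its 5 regions were covered over 1134, 2148, 4189, 2184 and 1190 bp in Calu-1 and over 2274, 683, 876, 3554 and 1421 bp in HCC2450, so that each line was the wider one in part of them. The cluster also held acetylation of 7 other lines between the exclusive regions, of at most 5.70 kb in a line (HCC2279), against 31.0 kb in Calu-1 and 20.4 kb in HCC2450 over the whole span of 163 kb.

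Others were free of H3K27ac peaks of every other unmodified line. At chromosome 10, 127910044 to 127945432, 4 regions filled 21.6 kb of a span of 35.4 kb, all of it covered in HCC2450 (21.6 kb) and part of it in Calu-1 (8.12 kb), and no other unmodified line had an H3K27ac peak in the span. A Sox2 peak of NCI-H520 lay in the widest of the 4 regions, of 9128 bp. At chromosome 12, 80944058 to 80992521, 4 regions covered 3091, 3409, 3800 and 922 bp in Calu-1 and 5479, 5006, 4592 and 1521 bp in HCC2450, with no H3K27ac peak of another unmodified line and no factor peak in the span of 48.5 kb. The clusters at chromosome 6, 166436821 to 166492003, and chromosome 5, 93510213 to 93578692, each of 4 regions, likewise held no H3K27ac peak of the 11 other lines, and the one on chromosome 5 held a Sox2 peak of HCC95.

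Of all 192 clusters, the largest total length was at chromosome 9, 16189096 to 16254054, where 4 regions had 26.0 kb. HCC2450 covered 10413, 8177, 5371 and 2072 bp of them and Calu-1 1892, 2672, 1005 and 1530 bp, so HCC2450 was the wider line in every one. The cluster lies in the window of chromosome 9 with the most exclusive regions. Between them lay acetylation of 3 other lines, NCI-H520, NCI-H2887 and LK2, of at most 2.17 kb in a line.

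The remaining clusters named here had 4 regions each. At chromosome 10, 13963330 to 14030824, the regions were covered more evenly, over 3940, 3338, 1794 and 2132 bp in Calu-1 and 2494, 2676, 3937 and 2149 bp in HCC2450, and HCC2279 had 0.867 kb in the span. At chromosome 16, 86956308 to 87029748, peaks covered 19.5 kb of the span in Calu-1 and 19.8 kb in HCC2450, with at most 2.42 kb in another line. At chromosome 11, 12217913 to 12297320, and chromosome 15, 67106822 to 67188565, 7 and 10 other lines had peaks between the exclusive regions, of up to 5.93 and 8.90 kb.

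**Figure D4:**
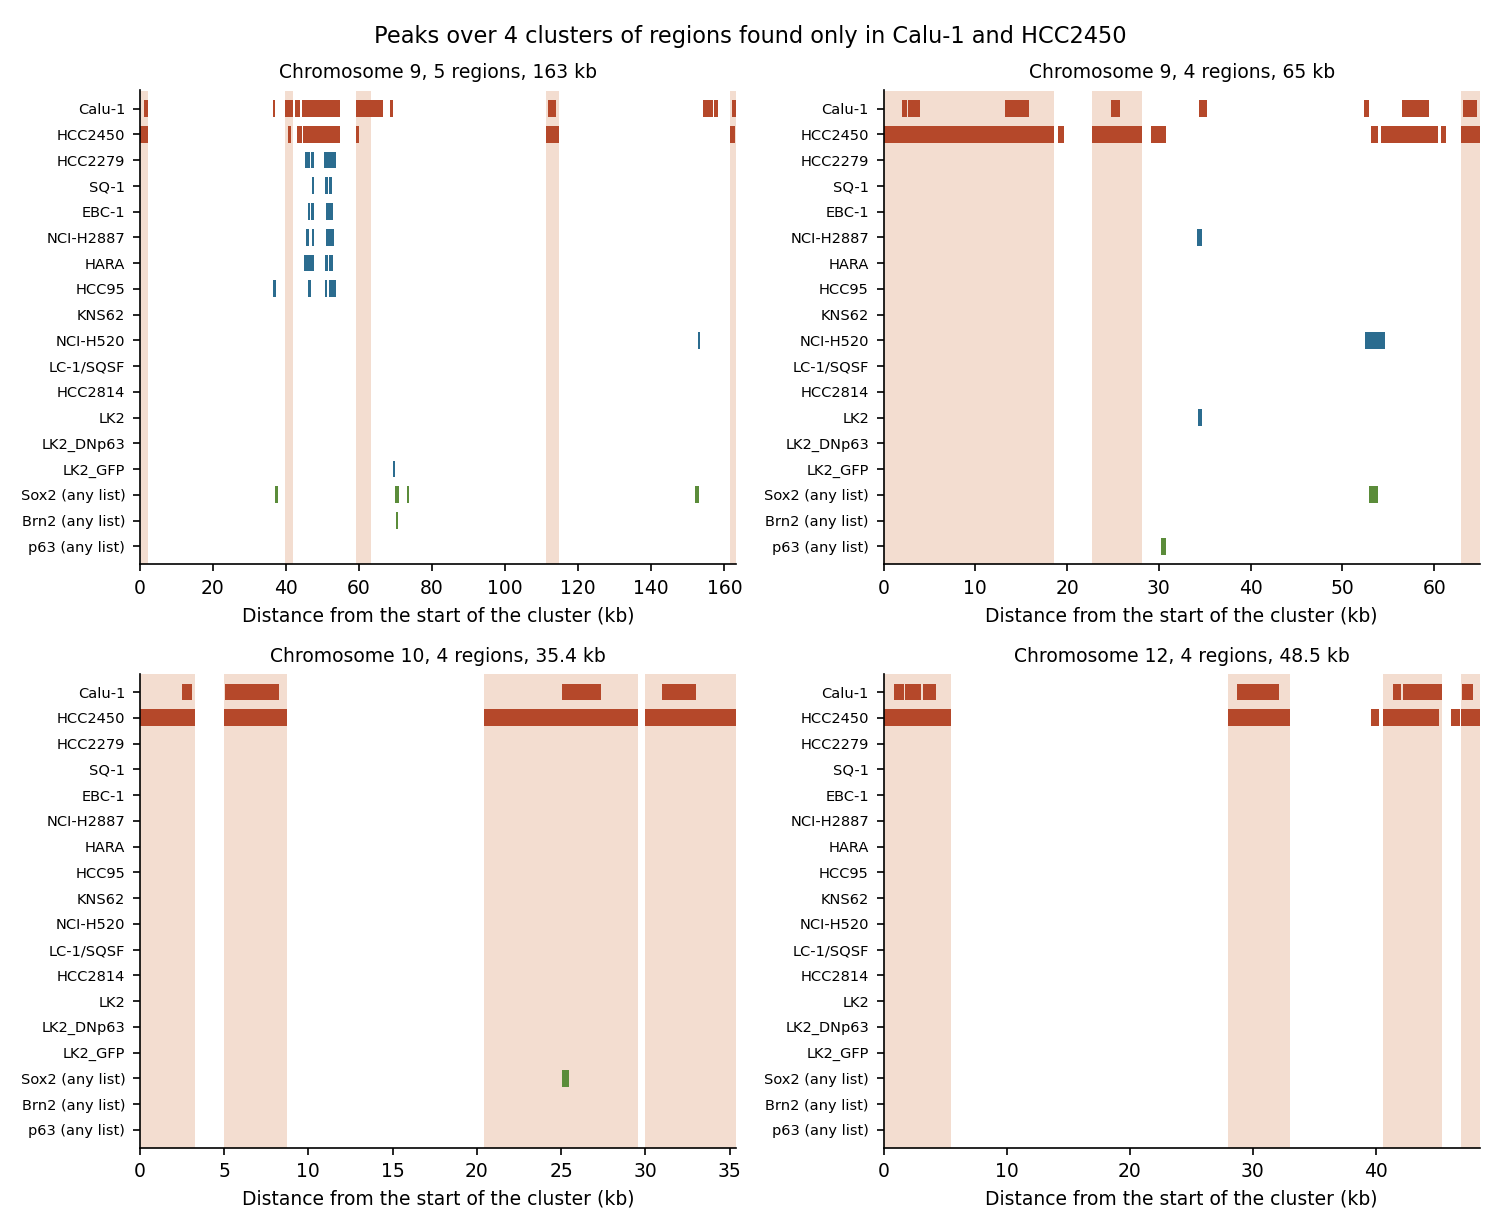
H3K27ac peaks of each line and factor peaks over the cluster of 5 regions and the 3 clusters of 4 regions with the largest total length, against the distance from the start of the cluster in kb. Shaded spans are the exclusive regions, red bars Calu-1 and HCC2450 peaks, blue bars H3K27ac peaks of other lines and green bars Sox2, Brn2 or p63 peaks of any list; the clusters on chromosomes 10 and 12 hold no H3K27ac peak of another unmodified line.

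Factor peaks were rare in the exclusive regions. Of the 1482 regions, 74 held a peak of any of the 10 factor lists (4.99%, 95% interval 4.0 to 6.22), against 23.2% of all merged regions. No factor was profiled in Calu-1 or HCC2450, so these peaks come from other lines. By the rule the regions carried no H3K27ac peak in the unmodified ones. The LK2 derivatives were outside the rule, and 2 regions held a factor peak and an H3K27ac peak of the same derivative. This count was not made over all merged regions, so it is not read as low or high. Cut to 500 bp at their centres, 2.70% (1.99 to 3.65) of the exclusive regions and 16.0% (15.8 to 16.3) of all merged regions held one. This window has the same length for every region but leaves out more of a wide region than of a narrow one. All merged regions include those acetylated in the unmodified lines where the factors were profiled. The other 6322 regions of exactly 2 lines with H3K27ac alone do not, though some were acetylated in an LK2 derivative, and of these 6322 regions 8.67% (8.0 to 9.39) held a factor peak, or 5.90% (5.35 to 6.51) at 500 bp.

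The low share was common to several pairs. Among 20 pairs of lines with H3K27ac alone and at least 100 exclusive regions each, Calu-1 with HCC2450 ranked 3 from the bottom, after Calu-1 with SQ-1 at 3.81% (2.57 to 5.61) and Calu-1 with HCC2279 at 4.72% (3.49 to 6.37). HCC2279 with HCC2450 stood at 5.37% (3.71 to 7.70), and these intervals overlap. The highest pairs were EBC-1 with NCI-H2887 at 25.9% (19.9 to 32.8) and HCC2279 with LC-1/SQSF at 14.6% (9.03 to 22.6). With the top-scoring peaks of every H3K27ac list the share in the 664 regions was 12.95%, and without the lowest 25% of scores it was 7.21%.

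A Sox2 peak was present in 69 of the 74 regions with a factor peak (93.2%, 85.1 to 97.1), against 96.4% (94.4 to 97.6) of such regions among the other regions of 2 lines and 92.3% among all merged regions. Sox2 lists make up 7 of the 10 factor lists and 87.7% of their peaks. Sox2 peaks of KNS62 lay in 24 exclusive regions (1.62%, 1.09 to 2.40), against 6.27% of all merged regions and 3.73% (3.29 to 4.23) of the other regions of 2 lines. Sox2 peaks of HCC95 lay in 17 (1.15%, 0.717 to 1.83), against 8.82% and 2.63% (2.26 to 3.05). Sox2 peaks of HCC2814 lay in 9 (0.607%, 0.320 to 1.15), against 4.88% and 2.36% (2.01 to 2.76). For these 3 lines the intervals of the exclusive regions and of the other regions of 2 lines did not overlap. They did overlap those of the 645 regions of Calu-1, HCC2450 and HCC2279 alone. In these 645 the shares were 2.48% (1.53 to 3.99) for KNS62, 1.40% (0.736 to 2.63) for HCC95 and 1.55% (0.844 to 2.83) for HCC2814. In the 664 regions from top-scoring peaks the shares were 5.42% for KNS62, 3.61% for HCC95 and 1.96% for HCC2814, with no background computed under that setting.

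For the unmodified lines LK2 and NCI-H520 the intervals of the exclusive regions and of the other regions of 2 lines overlapped. Sox2 peaks of LK2 lay in 13 exclusive regions (0.877%, 0.513 to 1.5), against 4.2% of all merged regions and 1.31% (1.06 to 1.62) of the other regions of 2 lines. The NCI-H520 Sox2 list had peaks in 12 (0.810%, 0.464 to 1.41), against 6.91% and 1.04% (0.821 to 1.33). In the LK2 derivatives, Sox2 peaks of LK2_DNp63 lay in 12 (0.810%, 0.464 to 1.41), against 2.6% of all merged regions and 0.917% (0.710 to 1.18) of the other regions of 2 lines. Those of LK2_GFP lay in 15 (1.01%, 0.614 to 1.66), against 6.99% and 2.09% (1.76 to 2.47), and here the intervals did not overlap. The interval of the exclusive regions did overlap that of the 645 regions of Calu-1, HCC2450 and HCC2279 alone, at 1.55% (0.844 to 2.83). The LK2_DNp63 list is the shorter, with 4217 peaks against 12034. In the 664 regions from top-scoring peaks the shares were 1.36% for LK2, 1.81% for NCI-H520, 1.51% for LK2_DNp63 and 1.96% for LK2_GFP.

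Most of these Sox2 sites came from a single line. Of the 63 exclusive regions with a Sox2 peak in any of the 5 unmodified lines, 53 had it in 1 line only (84.1%, 73.2 to 91.1), against 68.9% (64.6 to 72.9) among the other regions of 2 lines and 63% among all merged regions. LK2 and NCI-H520 both had one in 2 regions, and HCC95, KNS62 and HCC2814 all had one in 1 region. Of 21 regions with Sox2 in LK2 or a derivative, 6 had it in all 3 lists of that background (28.6%, 13.8 to 49.96), against 19.5% (14.1 to 26.3) and 24.6%.

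The regions with peaks in the most factor lists are given with the rank of the factor peak within its list. At chromosome 1, 222339466 to 222342192, Sox2 peaks were present in LK2, NCI-H520, HCC2814, LK2_DNp63 and LK2_GFP, at the 21.6, 87.0, 87.9, 24.5 and 32.4 percentiles of the lists in that order, and the region was covered over 1643 bp in Calu-1 and 2727 bp in HCC2450. At chromosome 9, 84436992 to 84438375, Sox2 peaks were present in KNS62 (79.6 percentile), HCC2814 (83.4), LK2_DNp63 (76.6), LK2_GFP (60.9) and HCC95 (9.34), and the region, with 597 bp in Calu-1 and 1384 bp in HCC2450, had its Calu-1 peak at the 0.221 percentile. At chromosome 20, 9221073 to 9222240, Sox2 of LK2 stood at the 91.8 percentile, and the same peak reached into a second exclusive region at 9222254 to 9223163. At chromosome 10, 4568216 to 4572188, it stood at the 96.5 percentile in LK2, 74.7 in LK2_DNp63 and 89.8 in LK2_GFP. In the last 2 regions the Sox2 peak was among the upper 10% of the LK2 list. The rule fixed in advance that LK2 had no H3K27ac peak there, as in every exclusive region.

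Brn2 and p63 peaks were found in few regions. Brn2 peaks of LK2 lay in 2 exclusive regions (0.135%, 0.0370 to 0.491), against 2.52% of all merged regions and 0.427% (0.294 to 0.621) of the other regions of 2 lines. The Brn2 list of NCI-H520 had peaks in 3 (0.202%, 0.0689 to 0.593), against 0.745% and 0.0475% (0.0161 to 0.139), and in none of the 1482 at 500 bp. The regions with Brn2 lay at chromosome 8, 38254014 to 38257670, and chromosome 9, 75592948 to 75593870, for LK2, and at chromosome 7, 35205045 to 35208147, chromosome 13, 75334363 to 75348990, and chromosome 20, 26142167 to 26149188, for NCI-H520. In that order the Brn2 peaks stood at the 12.8 and 67.8 percentiles of the LK2 list and the 31.1, 17.7 and 4.78 percentiles of the NCI-H520 list. The region on chromosome 9 was the only one with Brn2 and Sox2 peaks, both of LK2, and is also the region that lies 3 bp from an LK2 H3K27ac peak. The region on chromosome 13 is the widest of all 1482. The p63 peaks of LK2_DNp63 lay in 1 region (0.0675%, 0.0119 to 0.381), at chromosome 3, 132522642 to 132524212, against 2.13% of all merged regions and 0.253% (0.156 to 0.411) of the other regions of 2 lines. The p63 peak in that region stood at the 9.64 percentile of its list. In the 664 regions from top-scoring peaks the share was 0.602% for p63 (4 regions) and 0.301% for each Brn2 list (2 regions).

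**Figure D5:**
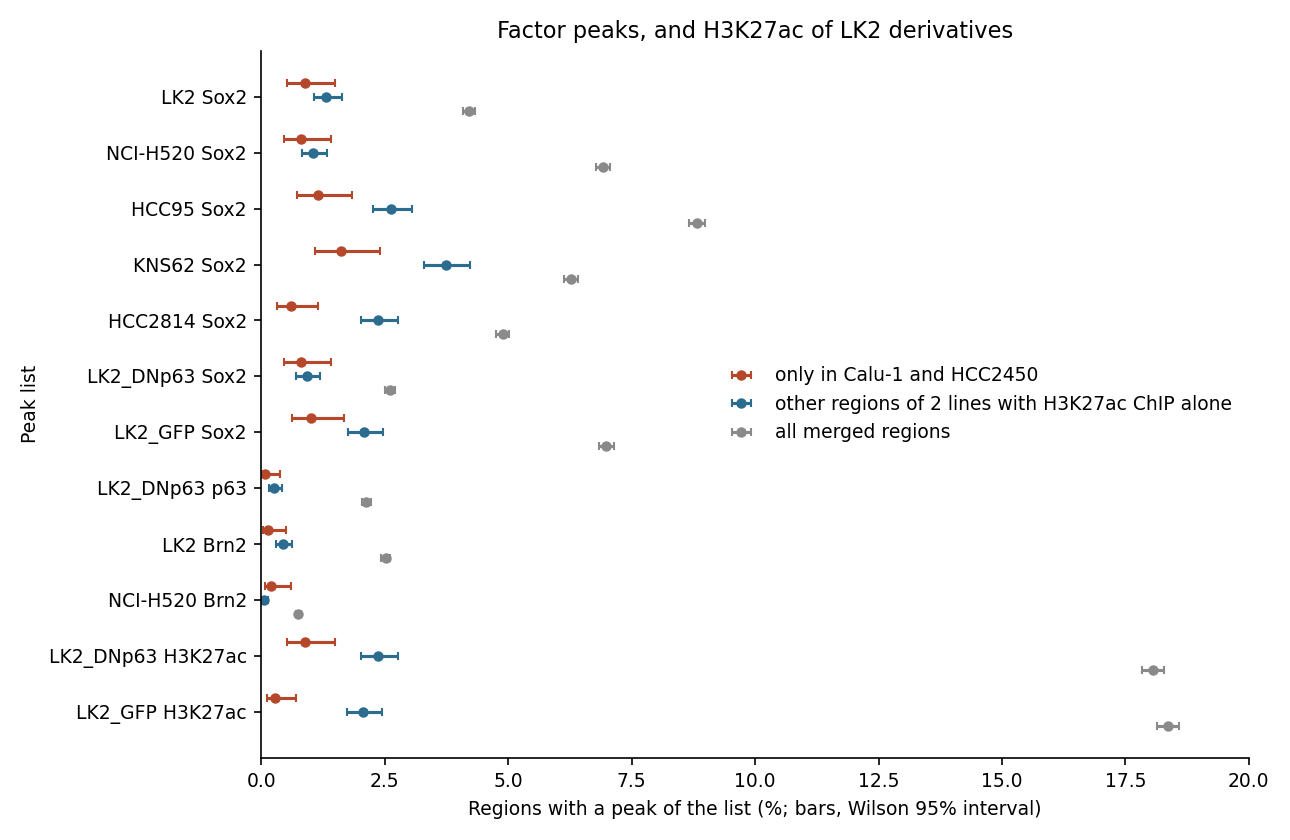
Share of regions with a peak of each Sox2, p63 and Brn2 list and of the H3K27ac lists of LK2_DNp63 and LK2_GFP, with Wilson 95% intervals, for the 1482 exclusive regions (red), the other 6322 regions of exactly 2 lines with H3K27ac alone (blue) and all merged regions (grey). The exclusive regions stay at or below 1.62% in every list.

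The H3K27ac lists of the LK2 derivatives were not used by the rule, although LK2 itself was among the lines that had to lack a peak. LK2_DNp63 had a peak in 13 exclusive regions (0.877%, 0.513 to 1.5), against 18.1% of all merged regions, and LK2_GFP in 4 (0.270%, 0.105 to 0.692), against 18.4%. There was 1 library of each, so the difference between them was not tested, and their intervals overlap. Of the 664 regions from top-scoring peaks, 5 had a peak of LK2_DNp63 (0.753%) and 6 a peak of LK2_GFP (0.904%). Without replicate 1 of LK2 H3K27ac the share was 1.07% for LK2_DNp63 and 0.470% for LK2_GFP. Of the regions without an LK2 peak, LK2_DNp63 had a peak in 4.84% (4.70 to 4.98) and LK2_GFP in 3.44% (3.33 to 3.56), and of the other regions of 2 lines with H3K27ac alone in 2.36% (2.01 to 2.76) and 2.06% (1.73 to 2.44).

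LK2_DNp63 alone had a peak in 12 regions and LK2_GFP alone in 3. Of the 16 regions with a peak in either, 1 had both (6.25%, 1.11 to 28.3), against 30.4% (24.6 to 36.8) among the other regions of 2 lines and 69.6% among all merged regions. The region at chromosome 11, 86494910 to 86496784, was the only one with both, covered over all of its 1875 bp in LK2_DNp63 at the 97.9 percentile of that list and over 1447 bp in LK2_GFP at the 64.1 percentile, and it lay 4.46 kb from an LK2 peak. At chromosome 8, 123612534 to 123615617, LK2_DNp63 covered 1271 bp at the 61.0 percentile, and at chromosome 2, 97497814 to 97499616, 1340 bp at the 55.3 percentile. The other 10 regions of LK2_DNp63 stood at the 32.3 percentile or below. None of the 13 held a p63 peak of LK2_DNp63, and the nearest p63 peak lay 2.45 kb from a region, at chromosome 14, 102647973 to 102650245, and at least 36.1 kb from the other 12. Such a peak lay in only 0.0675% of the exclusive regions and in 2.13% of all merged regions, so none among 13 says little. The share among all merged regions acetylated in LK2_DNp63 was not computed.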

How the data were processed

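Peak lists of 27 of the 43 samples were used, and the 16 input samples were not analysed here. The submitters' processing notes name Bowtie2 for alignment and hg19 (GRCh37) as the build. Each deposited list gives position and the authors' score per peak, and the peak names begin with MACS. No caller version, threshold or use of inputs is given in the sources used here. Scores start at 50 and served only to rank or filter peaks within a list. Of 652792 deposited peaks, 2092 lay outside chromosomes 1 to 22 and X and were left out. Regions were merged and counted in Python 3.11.15 (numpy 2.4.6, scipy 1.17.1), checked on simulated lists. The intervals beside shares are 95% Wilson intervals for counting error only. They treat regions as separate, although a factor peak that reaches into neighbouring regions was counted in each, and their overlap is not a test. The replicate of a line is its library, and no labels say that libraries came from separate cultures. Nothing was tested over lines, since the rule used the H3K27ac calls and no factor list comes from the pair.

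The regions and comparisons were chosen with earlier results of these data known. The rule for naming took the 10 widest regions, the 10 clusters with most regions (9 of the 10 clusters of 4, taken by total length), and the 5 regions each with the best mean rank (9 tied at the best, of which 5 are given) and with peaks in most factor lists. The 5 regions farthest from other lines and all regions with a Brn2 or p63 peak were added after their values were seen. Coordinates are 1-based. Promoter position, gene lists, motifs and sequences need hg19 annotation or sequence and were not analysed.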

Additional observations from a re-analysis of the deposited data

How the results depend on the processing

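With the top-scoring peaks alone the count of exclusive regions was 664, the median width 3549.5 bp, the clusters 59, the share with a factor peak 12.95% and the share with LK2_GFP acetylation 0.904%. Without the lowest 25% of scores the width was 2526 bp, the clusters 123 and the factor share 7.21%. With gaps of up to 500 bp merged the width was 2196 bp and the clusters 122, and with a joining distance 4 times shorter the clusters were 127. At 500 bp around the centre the factor share was 2.70%. The causes were not tested, apart from the narrower window, which holds less sequence by construction. Leaving out 1 library of LK2 or NCI-H520 in turn gave 1485 to 1492 regions, widths of 2025.5 to 2036 bp, 192 to 194 clusters, factor shares of 4.98% to 5.24%, and acetylation in LK2_DNp63 of 0.871% to 1.07% and in LK2_GFP of 0.268% to 0.470%. Merging touching peaks, an alternative chosen after the data were seen, changed none of these values. Of all 194 values under an alternative, 163 moved by less than their interval or by less than 1.5 times. These 163 include the values from leaving out regions under 500 bp, which could change nothing, since the narrowest region had 522 bp. They also include the unchanged values from merging touching peaks. No paired analysis was possible because no result comes from a test. Alternatives that need transcription starts or genes were not run. Depth is unknown, so an absent peak may be one that was not detectable.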
